A study of Homo sapiens with 10 samples.

Results

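The variant histone genes of the H2A and H3 families were followed through an siRNA experiment that removed the H2A.Z isoforms. The list names 8 genes: H2AFZ, H2AFV, H2AFX, H2AFY, H2AFY2 and H2AFJ of the H2A family, and H3F3A and H3F3B of the H3 family. Of these, 7 were analysed among the 23089 genes of the count table, while H3F3A was not analysed here. The cells were U2OS, an established human osteosarcoma line, and the 10 libraries came from 5 conditions with 2 transfected samples each: control siRNA siCtrl 3, control siRNA siCtrl 4, siH2A.Z1, siH2A.Z2, and siH2A.Z1 with siH2A.Z2. All cells, controls included, carried an siRNA for 3 days, and the RNA was total RNA depleted of ribosomal RNA and sequenced with strand. By the study's methods the samples were transfected side by side, and the labels name no separate cultures or experiments. The p-values thus measure only the spread between such parallel samples. Where siCtrl 3 and siCtrl 4 are pooled, that spread also holds the difference between the 2 control siRNAs.

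Most histone genes are copied into mRNA only while DNA is replicated, and their mRNAs end in a stem-loop in place of a poly(A) tail. Variant histones are made from separate genes, most of them with introns and poly(A) tails, outside S phase too, and they replace canonical histones at particular places. H2A.Z, made from H2AFZ (isoform H2A.Z.1) and H2AFV (isoform H2A.Z.2), sits next to transcription start sites and is deposited by the SRCAP and EP400 complexes. H2A.X is phosphorylated around DNA breaks, macroH2A (H2AFY and H2AFY2) is a large variant of silent chromatin, H2A.J (H2AFJ) is a close relative of canonical H2A, and H3.3 (H3F3A and H3F3B) is deposited at active genes by HIRA and at repeats by DAXX and ATRX. The comparison asks which of these genes moved when either isoform, or both, was depleted.

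The siRNA sequences are shown because 2 of the members are their targets. In each guide strand, given 5′ to 3′, capitals mark the seed (bases 2 to 8), and in each target site, given in the sense of the mRNA, capitals mark the stretch that the siRNA matches.
H2A.Z.1 siRNA guide: cUCAAUCAaaacccacuac
H2AFZ site: ctgaaGTAGTGGGTTTTGATTGAGttgac
H2A.Z.2 siRNA guide: uCAACACAcaacugucacc
H2AFV site: catgtGGTGACAGTTGTGTGTTGAttggc
H2AFZ (H2AZ1 in GENCODE v44, hg38) lies on chromosome 4 from 99948086 to 99950355 on the minus strand, and its site, at 99948214 to 99948232, is in the 3'UTR in exon 5 of 5. H2AFV (H2AZ2) lies on chromosome 7 from 44826791 to 44848087 on the minus strand, and its site, at 44834295 to 44834313, is also in the 3'UTR in exon 5 of 5. The 7 letters that pair with the seed of the H2A.Z.1 siRNA, TGATTGA, are part of the H2AFZ site shown. They occurred in a 3'UTR of H2AFZ, H2AFV and H2AFY, and in 17.1% of 13943 tested genes with an annotated 3'UTR. The letters for the H2A.Z.2 siRNA, TGTGTTG, are part of the H2AFV site shown. They occurred in H2AFV, H2AFY and H3F3B, and in 25.0% of these genes. The corresponding 7 letters of the study's control siRNAs, ATACGTA and AGTACTA, occurred in none of the members and in 3.96% and 9.93% of these genes. A match of 7 letters is a description and not a site of action.

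The libraries held 16716990 to 26946836 counts. Of 7 mesenchymal or osteoblast-lineage genes expected in U2OS, 6 were at 1 CPM or more in every library. The exception was COL1A2, at 0.190 to 1.2 CPM. Of 7 markers of blood, epithelial, endothelial and liver cells, only EPCAM was at 1 CPM or more in every library, and their summed level was 6.18 to 7.94 CPM in the controls, 4.09 to 4.49 CPM with siH2A.Z1, 5.63 to 6.40 CPM with siH2A.Z2 and 3.75 to 4.33 CPM with both. CD3E, the T cell marker, was at or near 0, with at most 1 count in a library. Throughout, CPM are read counts scaled to a common library size with TMM factors, a comparison with the 4 controls pools siCtrl 3 and siCtrl 4, and a gene was called when its Benjamini-Hochberg adjusted p from edgeR was under 0.05 and its absolute log2 fold change above 0.32.

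**Figure D1:**
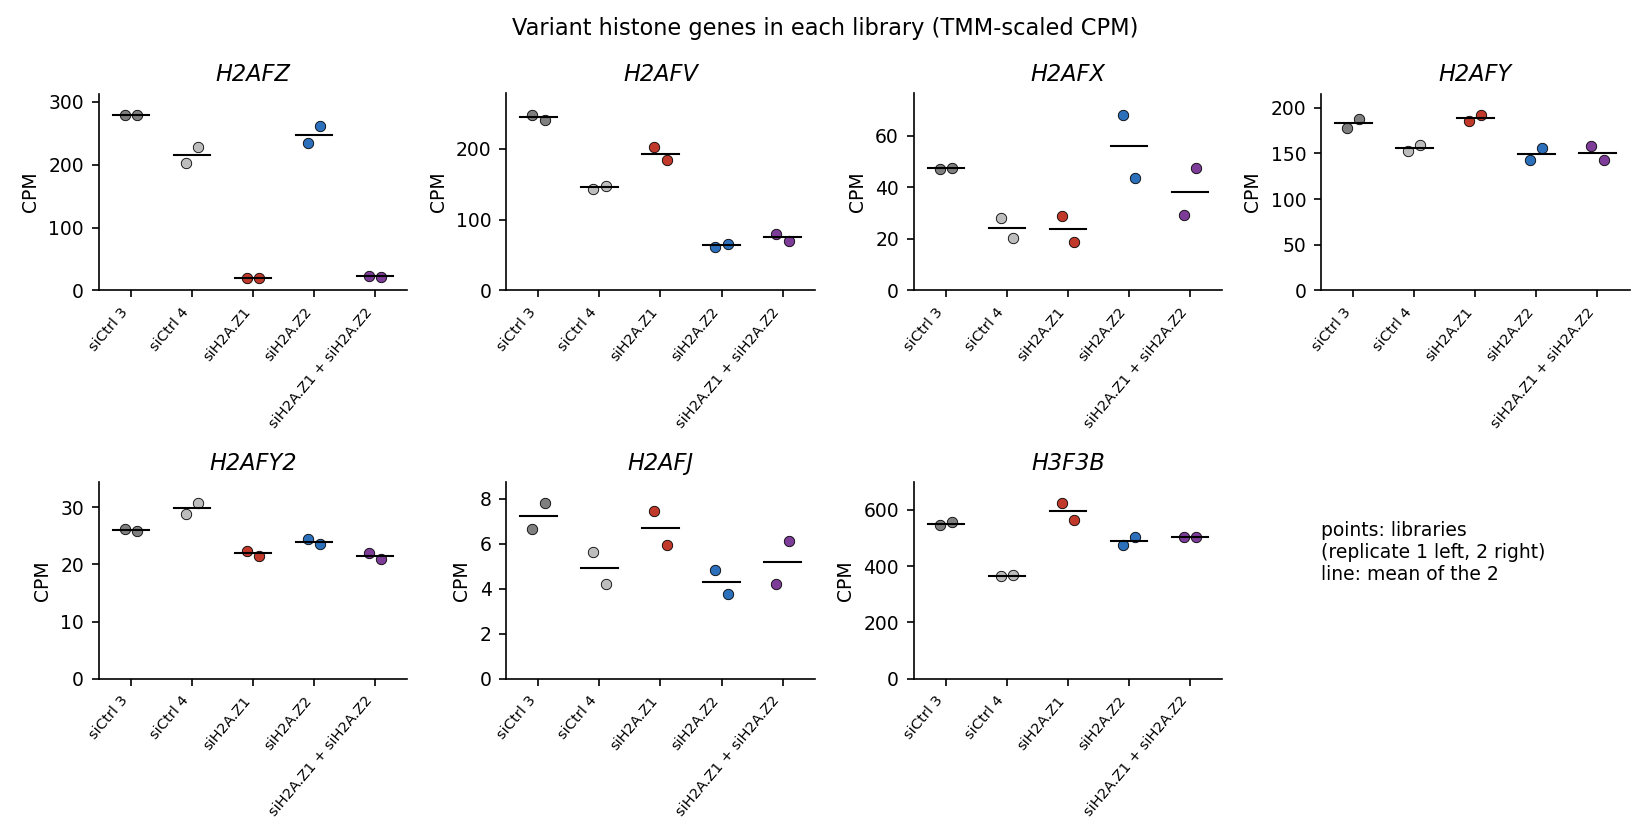
TMM-scaled CPM of the 7 variant histone genes in the 10 libraries, each panel with its own linear axis from 0; points are libraries (replicate 1 left, 2 right) and lines the mean of each pair. H2AFZ sits between 19.1 and 22.5 CPM wherever siH2A.Z1 was used and at 203 CPM or more elsewhere, and H2AFX shows the widest gaps between replicates.

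Per kilobase of exon, H2AFZ was the most abundant member in the control libraries, with 109 ± 17 CPM per kb (SD, n = 4; all exons of the gene merged). H3F3B followed with 74.7 ± 17.4, H2AFV with 27.9 ± 8.2, H2AFX with 22.4 ± 8.7 and H2AFY with 9.96 ± 0.95 CPM per kb. H2AFY2 and H2AFJ were lowest, at 1.86 ± 0.15 and 1.82 ± 0.46 CPM per kb. The ranges of H2AFZ (89.6 to 123) and H3F3B (59.4 to 90.7) overlapped slightly, and those of H2AFV (20.4 to 35.5) and H2AFX (12.6 to 29.8) widely. Within each of the 4 control libraries, however, H2AFZ stood above H3F3B and H2AFV above H2AFX. H2AFY2 and H2AFJ overlapped and changed places between libraries, H2AFJ being higher with siCtrl 3 and H2AFY2 with siCtrl 4. The order depends on the length used: per kilobase of the MANE Select transcript, the reference transcript of a gene, H2AFY had 88.4 ± 8.4 CPM per kb and stood above H2AFV with 64.5 ± 19.

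H2AFZ was the member with the widest range over the 10 libraries, 14.6 times between the lowest and the highest. The siCtrl 3 libraries held 279.7 and 279.1 CPM, the siCtrl 4 libraries 203 and 228, the siH2A.Z1 libraries 19.9 and 19.1, the siH2A.Z2 libraries 234 and 262, and those with both siRNAs 22.5 and 21.9. The libraries with siH2A.Z1, alone or combined, lay far below all others, and the siH2A.Z2 libraries lay within the range of the controls. The fall was to 7.89% ± 0.22 (SD, n = 2) of the control mean with siH2A.Z1, a log2 fold change of -3.67 (95% interval -4.13 to -3.22, adjusted p = 0.000245). It was to 8.95% ± 0.17 (SD, n = 2) with both, a log2 fold change of -3.45 (95% interval -3.89 to -3.02, adjusted p = 0.000584). With siH2A.Z2 the difference was 0.03 (95% interval -0.33 to 0.39, adjusted p = 0.955), so a moderate change in either direction lies within the interval. In bulk RNA, less mRNA per cell and fewer cells that hold it cannot be told apart.

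H2AFV, the target of siH2A.Z2, stood at 249 and 241 CPM when siCtrl 3 was the control and at 143 and 148 CPM when it was siCtrl 4. It stood at 203 and 184 CPM with siH2A.Z1, 61.9 and 65.8 with siH2A.Z2, and 80.3 and 70.3 with both. The libraries with siH2A.Z2 were the lowest, alone or combined, while those with siH2A.Z1 lay between the 2 control siRNAs. Its level was 32.7% ± 1.4 (SD, n = 2) of the control mean with siH2A.Z2 and 38.6% ± 3.6 (SD, n = 2) with both. The log2 fold change was -1.59 with siH2A.Z2 (95% interval -2.26 to -0.91), which was not called (adjusted p = 0.0754), although both libraries lay below all controls. It was -1.35 with both siRNAs (95% interval -2.02 to -0.68), which was called (adjusted p = 0.0228), but without replicate 1 or 2 of the combined depletion the adjusted p was 0.161 and 0.178. In a fit of all 10 libraries with the controls pooled, siH2A.Z2 gave -1.59 for H2AFV, which was called (adjusted p = 0.0108). Against siCtrl 3 or siCtrl 4 alone, in 1 fit of 10 libraries in 5 groups, it gave -1.92 (adjusted p = 1.83e-07) and -1.17 (adjusted p = 7.37e-07).

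Whether H2AFV rose when H2AFZ was removed turned on the control. Against the 4 controls the log2 fold change of H2AFV with siH2A.Z1 was -0.02 (95% interval -0.65 to 0.60, adjusted p = 0.954). Against siCtrl 3 alone H2AFV was lower and called, at -0.35 (95% interval -0.51 to -0.19, adjusted p = 0.00200), and against siCtrl 4 alone it was higher and called, at 0.40 (95% interval 0.24 to 0.56, adjusted p = 0.000657). The last 2 values come from 1 fit of 10 libraries in 5 groups and share the siH2A.Z1 libraries, whereas the first comes from a fit of 6 libraries. The reverse case, H2AFZ with siH2A.Z2, gave -0.15 against siCtrl 3 (adjusted p = 0.167) and 0.22 against siCtrl 4 (adjusted p = 0.0231, below the threshold on fold change).

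**Figure D2:**
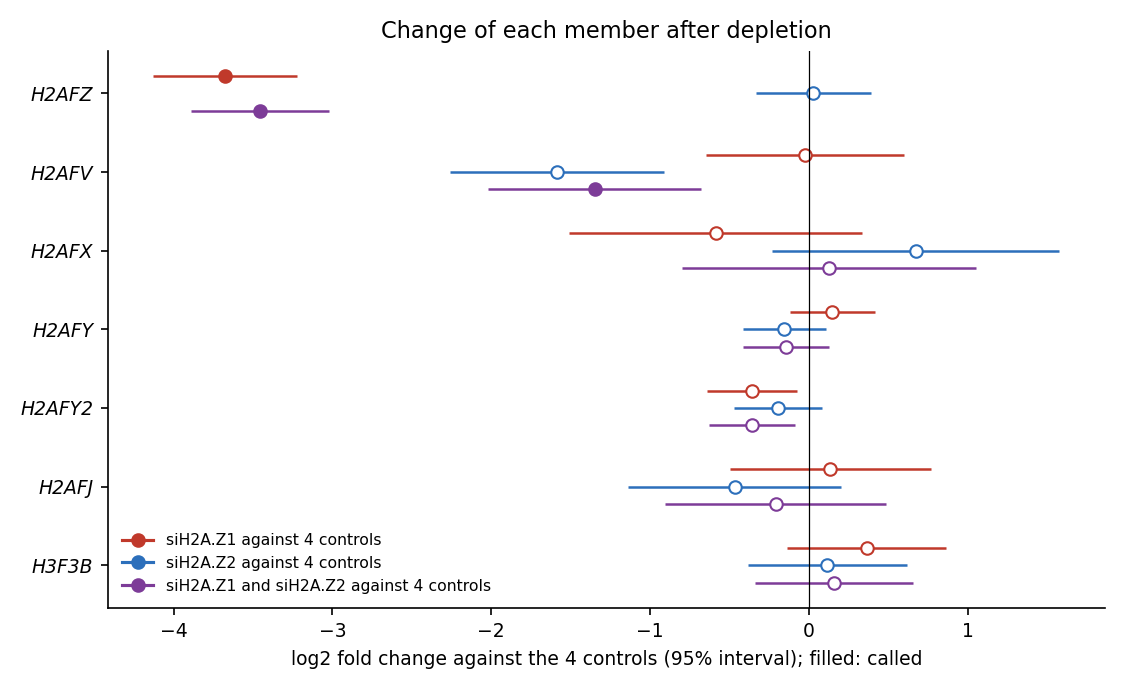
Log2 fold changes (x axis) of the 7 members against the 4 pooled controls for the 3 depletions, with 95% intervals from edgeR; filled points were called. The 3 filled points are H2AFZ with siH2A.Z1 (-3.67) and H2AFZ (-3.45) and H2AFV (-1.35) with both siRNAs.

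Of the 7 members, 1 was called with siH2A.Z1, 0 with siH2A.Z2 and 2 with both siRNAs, and all 3 calls are siRNA targets. Among all genes tested, 28.0% (4505 of 16112), 0.785% (127 of 16188) and 17.1% (2771 of 16184) were called. Thus 0 of 5 members that no siRNA matches in full were called by edgeR in these fits of 6 libraries, and at an unadjusted p under 0.05 only H2AFY2 stood out among them, with siH2A.Z1 and with both. DESeq2, and edgeR in a fit of all 10 libraries, called H2AFY2 in those same comparisons. With siH2A.Z2, H2AFV was the only member at an unadjusted p under 0.05 in edgeR and the only one that DESeq2 called (adjusted p = 3.62e-06). The median log2 fold change of the 7 members was -0.02 with siH2A.Z1, -0.15 with siH2A.Z2 and -0.21 with both, beside -0.02, -0.0019 and -0.01 over all genes. Of the members, 3, 2 and 3 did not overlap with the controls, where 54.5%, 27.8% and 48.6% of all genes did not overlap.

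Summed as H2A.Z transcripts, H2AFZ and H2AFV together fell to 26.5% ± 1.6 (SD, n = 2) of the control mean with siH2A.Z1 and to 15.0% ± 0.9 (SD, n = 2) with both, per kilobase of merged exons. With siH2A.Z2 the sum was 86.4% ± 6.6 (SD, n = 2), within the range of the control siRNAs, 115.4% ± 0.7 for siCtrl 3 and 84.6% ± 5.9 for siCtrl 4 (SD, n = 2 each). H2AFV made up 20.1% ± 2.4 (SD, n = 4) of these transcripts in the controls. Its share was 76.2% ± 0.8 with siH2A.Z1, 7.72% ± 0.26 with siH2A.Z2 and 52.4% ± 1.9 with both (SD, n = 2 each). Thus the H2A.Z mRNA that remained with siH2A.Z1 was mostly H2AFV. The shares depend on the length given to each gene: by the longest transcript H2AFV made up 27.6% in the controls and 83.0%, 11.3% and 62.6% in the depletions, and by the MANE Select transcript 18.1%, 73.9%, 6.87% and 49.3%. The order of the groups was the same by all 3 lengths. No test was run on these shares, which are fixed by the siRNA targets.

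**Figure D3:**
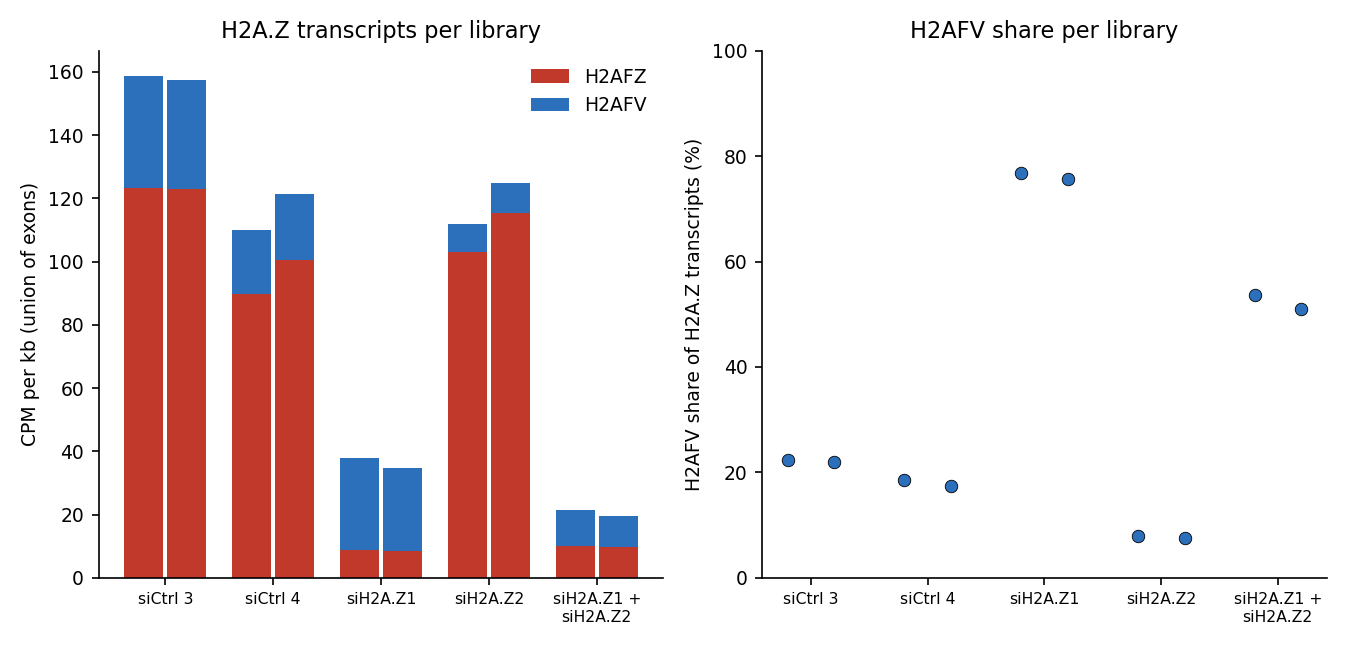
Left, CPM per kb of merged exons for H2AFZ (red) and H2AFV (blue), stacked, in each of the 10 libraries (replicate 1 left, 2 right); right, the share of H2AFV in that sum, in percent. The share is 17.4 to 22.4% in the control libraries, 75.7 to 76.8% with siH2A.Z1, 7.53 to 7.90% with siH2A.Z2 and 51.0 to 53.7% with both.

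The direct comparisons between depletions do not use the controls, although the fit of all 10 libraries does for its spread. siH2A.Z1 against siH2A.Z2 gave 2 calls among the members, H2AFZ at -3.69 (standard error 0.17, adjusted p = 3.66e-06) and H2AFV at 1.57 (standard error 0.27, adjusted p = 0.00231), where 32.2% of all genes were called. Both siRNAs against siH2A.Z1 gave 1 call, H2AFV at -1.34 (standard error 0.27, adjusted p = 0.0279), where 3.79% of all genes were called. That call was lost without any of the 4 libraries compared, with adjusted p from 0.146 to 0.235. Both siRNAs against siH2A.Z2 gave 1 call, H2AFZ at -3.49 (standard error 0.17, adjusted p = 1.75e-05), where 13.8% were called. Scaled by library size alone, calls that were higher made up 55.0% for siH2A.Z1 against siH2A.Z2 and 53.0% for both against siH2A.Z2, in place of 43.1% and 34.5%, and the median of all genes moved by 0.11 and 0.10. H2AFZ with both siRNAs differed from siH2A.Z1 by 0.20 (95% interval -0.15 to 0.56, adjusted p = 0.539), and H2AFV with both differed from siH2A.Z2 by 0.23 (95% interval -0.37 to 0.83, adjusted p = 0.628). The non-additive term, the combined effect beyond the sum of the single effects on the log2 scale, was called for 0 of 7 members and 0.140% of all genes (23 of 16486). Its estimates for the members lay between -0.33 for H3F3B and 0.25 for H2AFV, with unadjusted p of 0.254 or more in edgeR, and DESeq2 called 0 of the 7 too.

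H3F3B, one of the genes for H3.3, had the highest CPM of the members in the controls. It lies on chromosome 17 from 75776434 to 75785893 on the minus strand. Its CPM came to 545 and 557 under siCtrl 3, 364 and 367 under siCtrl 4, 623 and 564 with siH2A.Z1, 474 and 502 with siH2A.Z2, and 502 and 502 with both. The siH2A.Z1 libraries were the highest and above all controls, and the siCtrl 4 libraries stood apart as the lowest. Against the 4 controls the log2 fold changes were 0.36 with siH2A.Z1 (95% interval -0.14 to 0.86, adjusted p = 0.238), 0.12 with siH2A.Z2 (adjusted p = 0.840) and 0.16 with both (adjusted p = 0.641), and none was called. Against siCtrl 4 alone H3F3B was called higher in all 3 depletions, by 0.69 (adjusted p = 3.64e-06), 0.44 (adjusted p = 0.000244) and 0.47 (adjusted p = 8.98e-05). Against siCtrl 3 alone it was called in none of them, at 0.10, -0.15 and -0.12 (adjusted p = 0.202, 0.131 and 0.160). An unplanned fit of 10 libraries in 5 groups set H3F3B against the mean of the 2 control siRNAs. There siH2A.Z1 gave 0.40 (95% interval 0.28 to 0.52, adjusted p = 7.41e-05), which was called. With siH2A.Z2 that fit gave 0.14 (adjusted p = 0.0753), which was not called. H3F3AP4, a processed copy of an H3.3 gene that can share reads with the H3.3 genes, was at 8.32 to 16.04 CPM in the controls, 9.04 and 8.95 with siH2A.Z1, 16.01 and 18.6 with siH2A.Z2 and 14.8 and 12.5 with both. In the siH2A.Z1 libraries, where H3F3B was highest, H3F3AP4 overlapped with the controls and was not called (-0.52, adjusted p = 0.191). The counter's default leaves out reads that align to several places, so H3F3B counts may miss reads that its copies match too.

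H2AFX encodes H2A.X, the variant that marks DNA breaks, on chromosome 11 from 119093874 to 119095465 on the minus strand. It is a gene of 1 exon and the only analysed member whose annotated 3'UTR held the histone stem-loop, searched as GGNNNNTTTNNNNNCC with a fully paired stem on the mRNA strand. The match was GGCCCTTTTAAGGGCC, and 58 of 13943 genes with a 3'UTR (0.416%) held one. The CPM of H2AFX came to 47.2 and 47.5 under siCtrl 3, 28.1 and 20.1 under siCtrl 4, 29.0 and 18.9 with siH2A.Z1, 68.1 and 43.4 with siH2A.Z2, and 29.1 and 47.5 with both. All depletion groups overlapped with the controls, and replicates of 4 of the 5 conditions lay far apart. The log2 fold changes were -0.59 with siH2A.Z1 (95% interval -1.51 to 0.34, adjusted p = 0.296), 0.67 with siH2A.Z2 (95% interval -0.23 to 1.58, adjusted p = 0.491) and 0.13 with both (95% interval -0.80 to 1.05, adjusted p = 0.850). These intervals do not separate a fall of more than 2-fold from no change with siH2A.Z1, or a rise of more than 2-fold with siH2A.Z2. Against siCtrl 3 alone H2AFX was called lower with siH2A.Z1 (-0.99, adjusted p = 0.0113), and against siCtrl 4 alone it was called higher with siH2A.Z2 (1.24, adjusted p = 0.00429). The unplanned fit against the mean of the 2 control siRNAs also called it higher with siH2A.Z2 (0.75, adjusted p = 0.0317), where 18.5% of all genes were called.

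Where H2AFX differed between replicates, its gap had the sign of those of other GC-rich genes and of stem-loop genes. The SD of its log2 CPM within conditions was 0.39, above 98.7% of the genes with a mean of 5 CPM or more, whose median was 0.10. Its longest transcript is 66.8% GC, above 99.1% of 11519 such genes matched to the annotation. The log2 ratio of replicate 1 to replicate 2 of H2AFX was -0.01 with siCtrl 3, 0.47 with siCtrl 4, 0.60 with siH2A.Z1, 0.64 with siH2A.Z2 and -0.70 with both. Over the 1152 most GC-rich genes the median ratio was 0.08, 0.30, 0.32, 0.36 and -0.29 in the same order, and over the 1152 least GC-rich genes -0.04, -0.18, 0.01, -0.14 and 0.08. The sign was thus the same for H2AFX and the GC-rich genes wherever H2AFX differed between replicates. Over the 47 stem-loop genes at this level, the median was 0.02, 0.15, 0.14, 0.12 and -0.06, with the same sign as H2AFX in those conditions too. H2AFX is both GC-rich and a stem-loop gene, and the part of either feature in its values was not tested. Between groups the most GC-rich genes had a median log2 fold change of -0.27 with siH2A.Z1, -0.09 with siH2A.Z2 and -0.19 with both, against the controls, beside -0.59, 0.67 and 0.13 for H2AFX. The 47 stem-loop genes had medians of -0.16, 0.05 and 0.09 in the same order. With siCtrl 4 against siCtrl 3 the median of the most GC-rich genes was 0.36 and H2AFX was at -0.97. The 47 stem-loop genes had a median of -0.47 there, with 22 called lower and 1 higher. Among all 16486 genes tested, 2847 were called lower and 2842 higher in that comparison.

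**Figure D4:**
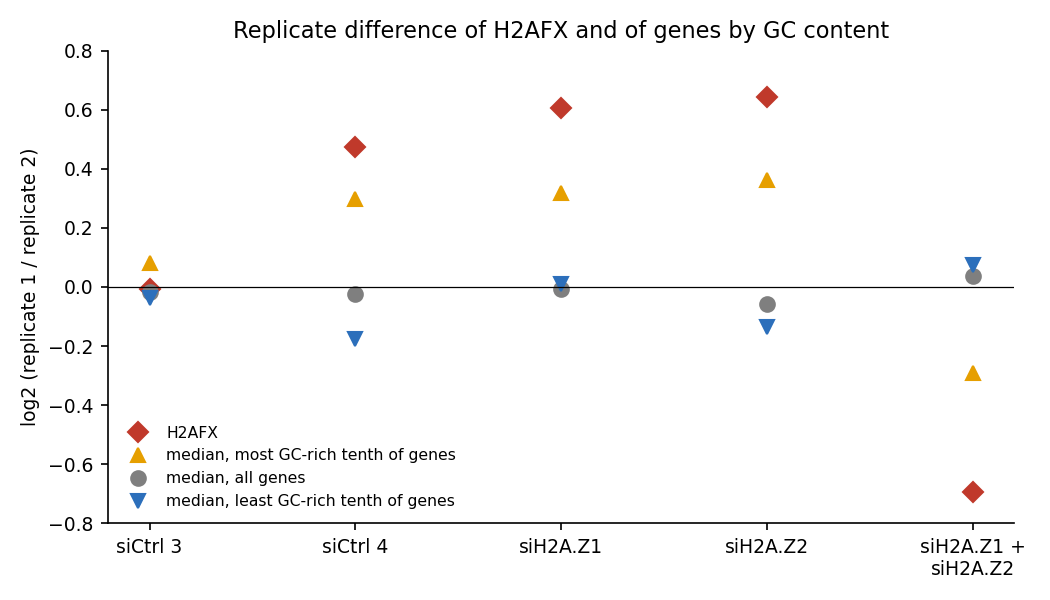
Log2 ratio of replicate 1 to replicate 2 (y axis) in the 5 conditions for H2AFX (red diamonds), the median of the 1152 most GC-rich genes (orange), all 11519 genes (grey) and the 1152 least GC-rich genes (blue). H2AFX and the GC-rich median are above 0 in siCtrl 4, siH2A.Z1 and siH2A.Z2 and below 0 with both siRNAs (-0.70 and -0.29).

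The macroH2A genes had small replicate gaps. H2AFY (chromosome 5, 135334381 to 135399914, minus strand) was at 178 and 187 CPM with siCtrl 3, 153 and 159.6 with siCtrl 4, 186 and 192.5 with siH2A.Z1, 143 and 156 with siH2A.Z2, and 159 and 143 with both. All depletion groups overlapped with the controls, and the whole range over 10 libraries was 1.35-fold. Its log2 fold changes were 0.15 (95% interval -0.12 to 0.42), -0.15 (-0.42 to 0.11) and -0.14 (-0.41 to 0.13), with adjusted p of 0.367, 0.584 and 0.422. H2AFY2 (chromosome 10, 70052544 to 70112282, plus strand) was at 26.2 and 25.9 CPM with siCtrl 3, 28.9 and 30.7 with siCtrl 4, 22.4 and 21.5 with siH2A.Z1, 24.4 and 23.6 with siH2A.Z2, and 21.9 and 20.9 with both. It was the only member whose 6 depleted libraries all lay below all 4 controls. Taken singly, 54.5%, 27.8% and 48.6% of all genes did not overlap with the controls, in either direction. The share of all genes that lay below in all 3 depletions was not counted. The log2 fold changes of H2AFY2 were -0.36 with siH2A.Z1 (95% interval -0.64 to -0.08, adjusted p = 0.0637), -0.19 with siH2A.Z2 (-0.47 to 0.08, adjusted p = 0.508) and -0.36 with both (-0.63 to -0.09, adjusted p = 0.0761). None passed the threshold. DESeq2 called H2AFY2 with siH2A.Z1 (adjusted p = 0.0488) and with both (adjusted p = 0.0438), and so did the edgeR fit of all 10 libraries (adjusted p = 0.0242 and 0.0282). The unplanned fit against the mean of the 2 control siRNAs called it lower with siH2A.Z1 (-0.35, adjusted p = 0.00220), where 47.7% of all genes were called.

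H2AFJ (chromosome 12, 14774405 to 14778002, plus strand), the H2A.J gene, had the lowest counts, 94 to 170 per library. It came to 6.65 and 7.80 CPM under siCtrl 3, 5.65 and 4.20 under siCtrl 4, 7.47 and 5.95 with siH2A.Z1, 4.83 and 3.77 with siH2A.Z2, and 4.20 and 6.13 with both. Every depletion group overlapped with the controls, and none was called. The log2 fold changes were 0.14, -0.47 and -0.21, and their 95% intervals reached from -0.50 to 0.77, -1.14 to 0.20 and -0.90 to 0.49.

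The members also differed between the control siRNAs, neither of which matches a member in full. In siCtrl 4 against siCtrl 3, 7 of 7 members did not overlap between the 2 libraries of each, 6 of them lower and H2AFY2 higher, where 72.5% of all genes did not overlap. Of the 7, 4 were called, all lower, where 34.5% of all genes were called (5689 of 16486). They were H2AFX at -0.97 (standard error 0.28, adjusted p = 0.0156), H2AFV at -0.75 (standard error 0.07, adjusted p = 1.32e-05), H3F3B at -0.59 (standard error 0.06, adjusted p = 2.75e-05) and H2AFZ at -0.37 (standard error 0.07, adjusted p = 0.00121). The median of the members was -0.55, beside 0.0069 over all genes. The call of H2AFX was lost without siCtrl 4 replicate 2 (-0.76, adjusted p = 0.108), and H2AFZ fell short of the fold threshold without siCtrl 4 replicate 1 (-0.29, adjusted p = 0.0170).

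**Figure D5:**
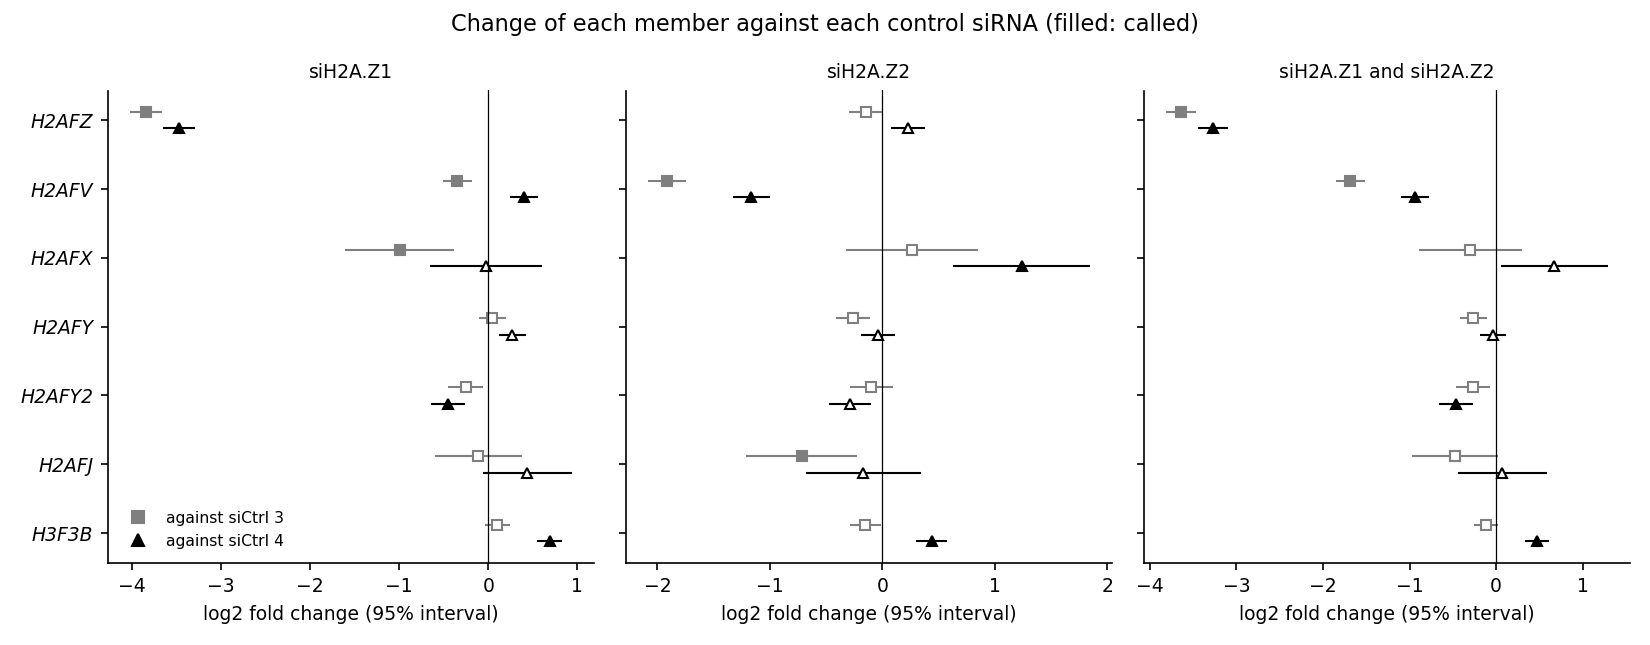
Log2 fold changes (x axis) of the 7 members for the 3 depletions against siCtrl 3 alone (grey squares) and siCtrl 4 alone (black triangles), with 95% intervals from the fit in 5 groups; filled symbols were called. H2AFV with siH2A.Z1 is filled on both sides of 0, at -0.35 and 0.40, and H3F3B is filled against siCtrl 4 only.

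Counts of called members changed with that choice. With siH2A.Z1, 3 of 7 were called against siCtrl 3 alone (H2AFZ, H2AFV and H2AFX, all lower) and 4 against siCtrl 4 alone (H2AFZ and H2AFY2 lower, H2AFV and H3F3B higher), where 45.2% and 51.0% of all genes were called. With siH2A.Z2, 2 were called against siCtrl 3 (H2AFV and H2AFJ, lower) and 3 against siCtrl 4 (H2AFV lower, H2AFX and H3F3B higher), where 14.6% and 32.6% were called. With both, 2 were called against siCtrl 3 (H2AFZ and H2AFV) and 4 against siCtrl 4 (H2AFZ, H2AFV and H2AFY2 lower, H3F3B higher), where 35.2% and 46.3% were called. The calls made against each control siRNA in the same direction were thus the siRNA targets alone. H2AFY2 with siH2A.Z1 missed this only on fold change. It was at -0.25 against siCtrl 3 (adjusted p = 0.0304, below the threshold on fold change) and -0.45 against siCtrl 4 (adjusted p = 0.00104).

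The promoters of the 4 members called between the control siRNAs are shown beside those of H2AFJ and H2AFY2, which were not called. Each is the stretch from 200 to 51 bases before the RefSeq start (GRCh38.p14), read in the direction of the gene, and capitals mark CCAAT or its reverse complement ATTGG, the box bound by NF-Y.
H2AFZ (chr4:99950326-99950475, minus strand): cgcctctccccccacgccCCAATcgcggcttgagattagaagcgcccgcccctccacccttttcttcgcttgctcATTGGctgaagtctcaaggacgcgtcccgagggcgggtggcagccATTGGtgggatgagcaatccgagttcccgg
H2AFV (chr7:44848138-44848287, minus strand): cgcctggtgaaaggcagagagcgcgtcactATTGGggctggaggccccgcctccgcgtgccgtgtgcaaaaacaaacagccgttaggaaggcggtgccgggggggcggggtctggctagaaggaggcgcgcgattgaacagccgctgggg
H2AFX (chr11:119095516-119095665, minus strand): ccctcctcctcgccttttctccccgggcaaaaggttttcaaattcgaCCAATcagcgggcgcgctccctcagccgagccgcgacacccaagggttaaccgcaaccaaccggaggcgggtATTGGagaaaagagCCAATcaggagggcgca
H3F3B (chr17:75779830-75779979, minus strand): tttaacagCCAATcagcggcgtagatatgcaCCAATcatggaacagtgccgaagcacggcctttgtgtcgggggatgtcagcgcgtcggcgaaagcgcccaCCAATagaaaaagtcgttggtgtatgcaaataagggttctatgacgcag
H2AFJ (chr12:14774205-14774354, plus strand): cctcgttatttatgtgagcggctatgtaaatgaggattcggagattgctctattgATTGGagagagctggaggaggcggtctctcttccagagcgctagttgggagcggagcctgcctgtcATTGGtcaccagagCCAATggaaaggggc
H2AFY2 (chr10:70052646-70052795, plus strand): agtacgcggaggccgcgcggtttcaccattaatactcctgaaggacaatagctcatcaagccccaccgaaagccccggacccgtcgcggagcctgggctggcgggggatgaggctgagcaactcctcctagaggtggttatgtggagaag
In the 250 bases before the start, the promoters of H2AFX, H2AFV and H3F3B held 4 boxes each and those of H2AFZ and H2AFJ 3 each, counting both strands, so that the stretch shown for H2AFV holds 1 of its 4 boxes. H2AFY2 held 0, and the promoters of H2AFY held 0 and 2. Of 35116 promoters in the table, 2.93% held 3 boxes or more and 32.0% at least 1. TATAAA, searched on the gene's strand, was found in H2AFZ, H2AFX and H3F3B and in 6.80% of promoters. The 4 members called in siCtrl 4 against siCtrl 3 each held 3 or more boxes, as did H2AFJ, which was at -0.55 and not called (adjusted p = 0.0719). H2AFY, whose promoters are not shown, was lower too, at -0.23 (adjusted p = 0.0211, below the threshold on fold change). Whether the boxes bear on the difference between the control siRNAs was not tested.

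Of 11 other histone variants on the list, 4 could be tested. H1F0, the linker histone of resting and differentiated cells, was at 331 and 345 CPM with siCtrl 3, 239.7 and 217 with siCtrl 4, 526 and 527 with siH2A.Z1, 231 and 241 with siH2A.Z2, and 406 and 390.2 with both. It rose with siH2A.Z1, and its log2 fold change was 0.88 (95% interval 0.40 to 1.36, adjusted p = 0.0196), the only call of this list in the 3 depletions, and the call was lost without siH2A.Z1 replicate 1 (adjusted p = 0.106) or 2 (adjusted p = 0.119). Among all genes 12.2% were called higher and 15.7% lower with siH2A.Z1, 0.605% and 0.179% with siH2A.Z2, and 7.77% and 9.35% with both. Scaled by library size alone, calls that were higher made up 56.7% with siH2A.Z1 and 59.1% with both, in place of 43.8% and 45.4%, and the median of all genes moved by 0.10 and 0.08. The median log2 fold change of the 4 was 0.50 with siH2A.Z1, -0.05 with siH2A.Z2 and 0.39 with both. With siH2A.Z1, H3F3C was at 1.01 (standard error 0.61), H1FX at 0.13 and CENPA at -0.38, and none of these was called. H3F3C held only 3 to 26 counts per library.

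All 17 chaperones and remodellers that carry variant histones were tested: with siH2A.Z1, 0 were called higher and 4 lower, with siH2A.Z2 0 in either direction, and with both 0 higher and 3 lower. Among all genes 28.0%, 0.785% and 17.1% were called in these comparisons, and 15.7%, 0.179% and 9.35% were called lower. The numbers called on this list were thus not far from the shares over all genes. The median log2 fold change of the 17 was -0.18, 0.02 and -0.08. DAXX, which carries H3.3 to repeats, was at 76.6 to 98.2 CPM in the controls and fell to 36.8 and 36.5 CPM with siH2A.Z1 (-1.24, standard error 0.13, adjusted p = 0.00147) and to 51.3 and 47.6 with both (-0.77, adjusted p = 0.0132). ATRX, its partner, was at 143 to 276 CPM in the controls and fell to 93.1 and 88.9 with siH2A.Z1 (-1.23, standard error 0.30, adjusted p = 0.0240). With both siRNAs ATRX was at 182 and 179.9 CPM, within the controls (-0.20, adjusted p = 0.664). SSRP1, a subunit of the FACT complex that handles H2A-H2B dimers, was at 226 to 306 CPM in the controls and fell to 94.7 and 92.5 with siH2A.Z1 (-1.52, standard error 0.17, adjusted p = 0.00180) and to 149 and 130.3 with both (-0.91, adjusted p = 0.0164). The control siRNAs differed too: siCtrl 4 against siCtrl 3 was -0.80 for ATRX and -0.41 for SSRP1, both called, and 0.30 for DAXX, which was under the threshold on fold change.

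CABIN1, a subunit of the HIRA complex, fell with siH2A.Z1 (-0.61, standard error 0.14, adjusted p = 0.0198), and SRCAP, the ATPase that deposits H2A.Z, fell with both (-0.39, standard error 0.08, adjusted p = 0.0236). DAXX and SSRP1 with siH2A.Z1 remained called without any single library. The other calls were lost without 1 depleted library: ATRX at adjusted p of 0.137 and 0.167, CABIN1 at 0.112 and 0.176, and, with both siRNAs, DAXX at 0.126 and 0.134, SSRP1 at 0.128 and 0.156 and SRCAP at 0.210 and 0.168. CABIN1 was also at 0.0508 without siCtrl 4 replicate 2, and SRCAP at 0.0558 and 0.0522 without siCtrl 3 replicate 1 or 2.

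Outside the members, the genes whose log2 CPM over the 10 libraries ran most like each of them were picked by Pearson's r among genes with a mean of 10 CPM or more, as a description. H2AFZ was nearest to KLHDC3 (r = 0.997) and NAE1 (0.996), and H2AFV to KLHL7 (0.975) and STMN1 (0.961). H2AFX was nearest to GPC1 (0.968) and HIST1H2BK (0.961), the latter a canonical histone gene. H2AFY was nearest to ATP5F1 (0.976) and MSL3P1 (0.969), H2AFY2 to ENTPD7 (0.982) and RPIA (0.980), H2AFJ to KLC4 (0.911) and JRK (0.906), and H3F3B to ZBTB26 (0.982) and PTPRR (0.981). The 10 libraries fall into 5 conditions, so each r rests on few independent levels, and libraries also share depth and base composition. Among the members themselves, H2AFV and H2AFY had the highest r (0.848) and H2AFY2 and H3F3B the lowest (-0.717).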

How the data were processed

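Stranded total RNA of 10 U2OS libraries was sequenced. The authors aligned paired reads to hg38 with STAR, sorted them with SAMtools and deposited whole read counts per gene from HTSeq 0.6.1 on a RefSeq annotation, in strand-specific mode with default settings. Depth was 16716990 to 26946836 counts per library, which limits the precision of low genes. Other deposited tables hold the authors' own DESeq2 1.22.1 comparisons and 36 columns of per-sample values, which were not used.

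The counts were tested with edgeR 4.0.16 (R 4.3.3) by its quasi-likelihood test with TMM factors and filterByExpr. Each depletion was set against the 4 control libraries in a fit of 6 libraries. The control siRNAs were compared in a fit of 10 libraries in 5 groups, and the other comparisons in a fit of 10 libraries in 4 groups with the controls pooled. Adjusted p are Benjamini-Hochberg values over all genes tested. Calls needed an adjusted p under 0.05 and, except for the non-additive term, an absolute log2 fold change above 0.32, the study's own threshold on fold change. The log2 CPM used a pseudocount of 0.5 for correlations and replicate ratios. On simulated data made from these libraries, 199 of 200 changed genes were recovered for 2 libraries against 4, with 8 false calls among 16112 genes. The simulation gave all 4 control libraries the same mean for each gene, with a fixed spread and changes of a set size. It held no difference between control siRNAs, so it does not measure recovery in the real fits with pooled controls.

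Alternatives were RLE factors, library size alone, no filter on low counts, DESeq2 1.42.0, 1 control siRNA alone or the mean of both as control, 1 fit of all 10 libraries, a replicate block, no fold threshold and leaving out each library. Named genes are the 7 members, listed variants and chaperones called in a depletion, the 2 genes most like each member, and the copy H3F3AP4. The members and lists were chosen with earlier results of these data known. Symbols were matched to GENCODE v44 (21264 of 23089, older names through RefSeq). siRNA sequences are those of the study; which control sequence is siCtrl 3 or siCtrl 4 is not given in the sources used here.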

Additional observations from a re-analysis of the deposited data

How the results depend on the processing

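Against the 4 controls, the number of members called with siH2A.Z1 (1 in the report) was 2 with DESeq2, 2 in a fit of all 10 libraries, 3 against siCtrl 3 alone, 4 against siCtrl 4 alone and 3 against the mean of the 2 control siRNAs. Among all genes 23.2%, 35.0%, 45.2%, 51.0% and 47.7% were called in these fits. With siH2A.Z2 (0 in the report) it was 1, 1, 2, 3 and 2 in the same order, and among all genes 3.00%, 3.29%, 14.6%, 32.6% and 18.5%. With both siRNAs (2 in the report) it was 4 against siCtrl 4 alone (46.3% of all genes) and 1 to 2 with 1 library left out. For siH2A.Z1 against siH2A.Z2 (2 in the report) it was 4 with DESeq2 (24.4% of all genes), and for both siRNAs against siH2A.Z1 (1 in the report) it was 0 with any 1 of the 4 libraries left out. The counts were within 1.5 times of those reported with RLE factors, library size alone, no filter on low counts and no fold threshold. H2AFV with siH2A.Z1 turned from -0.02 to 0.078 with library size alone, 0.40 against siCtrl 4 and 0.028 against the mean of the control siRNAs. Against siCtrl 3 alone the sign turned for H2AFJ with siH2A.Z1 (-0.11), H2AFZ and H3F3B with siH2A.Z2 (-0.15 and -0.15), and H2AFX and H3F3B with both (-0.30 and -0.12). Against siCtrl 4 alone it turned for H2AFJ with both (0.073). None of these was called except H2AFV against siCtrl 4, and the cause was not tested.

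With 1 library left out, the following log2 fold changes, none of them called, spanned 0. With siH2A.Z1 these were H2AFV (-0.15 to 0.11) and H2AFJ (-0.014 to 0.31), and with siH2A.Z2 H2AFZ (-0.056 to 0.094). With both siRNAs they were H2AFX (-0.27 to 0.44) and H2AFJ (-0.51 to 0.045). For both against siH2A.Z1 it was H2AFY2 (-0.051 to 0.0051), and for both against siH2A.Z2 H2AFY (-0.060 to 0.11), H2AFJ (-0.013 to 0.55) and H3F3B (-0.0068 to 0.087). In the non-additive term they were H2AFX (-0.34 to 0.40) and H2AFJ (-0.16 to 0.40). Where a group was left with 1 library, that library was taken to vary like the others.

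The labels number the libraries of each condition, but with 2 per group the numbers are not shown to pair them. The difference between replicates correlated across genes at 0.264 to 0.703 among the other 4 conditions and at -0.645 to -0.160 between these and both siRNAs. With a replicate block, 1 member was called with both siRNAs against the controls and 0 for both against siH2A.Z1, since H2AFV was lost at an adjusted p of 0.0590 and 0.0552 from edgeR with log2 fold changes of -1.35 and -1.34. With the numbers of the libraries with both siRNAs crossed, chosen after seeing the data, 1 and 1 were called. The block changed no other count of members.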
